A study of Mus musculus with 21 samples.

Results

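YAP and TAZ, their TEAD partners and genes tied to them were followed as 9 genes: Yap1, Wwtr1 (the gene of TAZ), Tead1, Tead2, Tead4, Ankrd1, Amotl2, Lats2 and Ajuba. They are 9 of the 22180 genes measured on 21 Affymetrix arrays. The list was drawn up because Ankrd1 was the gene raised most in Py8119 tumours over Py117 tumours, so it was chosen by its values in that contrast, which are given below for all members as a description, with no test. Other tests of members that use Py8119 or Py117 tumour arrays are not independent of that choice, and their p-values are descriptions. In the choosing contrast Ankrd1 ranked 1 of 22180, with a log2 difference of 5.16, and the gene that followed it stood at 4.24. The ranks of the other members in that contrast, counted from the most raised gene, were 376 for Ajuba, 581 for Tead2, 1290 for Wwtr1, 1579 for Tead1, 3201 for Amotl2, 4012 for Lats2, 6977 for Tead4 and 18887 for Yap1. Each gene was read on its single-symbol probe set with the highest mean, and all values are log2 signals.

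Py117 and Py8119 are mouse mammary carcinoma lines, each a clone from MMTV-PyMT mice, in which a mammary tumour virus promoter drives the polyomavirus middle T oncogene in mammary epithelium. All groups carry that transgene and none was treated. Mixed tumours (5 arrays) grew from a 1:1 implant of both lines, Py8119 tumours (5) and Py117 tumours (5) from 1 line, each after implanting 1000000 cells in mammary fat pad 4 in 50% Matrigel. Py8119 culture (3) and Py117 culture (3) were cells grown in medium with 5% serum. Tumours were collected on the day on which irradiation would normally have been given, and the labels give no age or strain of the hosts. The series describes the Py117 clone as sensitive and the Py8119 clone as resistant in its immune response to radiation.

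YAP and TAZ are coactivators without a DNA-binding domain of their own. They enter the nucleus and switch on genes through the TEAD transcription factors, which bind DNA. In the Hippo pathway the LATS kinases phosphorylate YAP and TAZ, which keeps them out of the nucleus, and proteins at cell junctions tune that step, so cell shape, crowding and stiffness of the surroundings alter their output. In mammary carcinoma cells TAZ and YAP are known for promoting growth and mesenchymal traits. Arrays read mRNA, and neither phosphorylation nor location in the cell was measured.

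The promoters of Ankrd1 and of the members Ajuba, Wwtr1 and Tead2 are printed because the difference between the lines in these genes was not the same in tumours as in culture, by the test below for the last 3 and as a description for Ankrd1. That test is not independent of how the list was drawn up, so the choice of these windows is a description. They are RefSeq windows on build GRCm38.p6, from 250 bases before to 50 bases after the transcript start, 5′ to 3′ on the gene's strand. Capitals mark GGAATG, the core letters bound by TEAD factors, or CATTCC, the same letters read on the other strand.
Ankrd1, chr19:36119795-36120094, minus strand: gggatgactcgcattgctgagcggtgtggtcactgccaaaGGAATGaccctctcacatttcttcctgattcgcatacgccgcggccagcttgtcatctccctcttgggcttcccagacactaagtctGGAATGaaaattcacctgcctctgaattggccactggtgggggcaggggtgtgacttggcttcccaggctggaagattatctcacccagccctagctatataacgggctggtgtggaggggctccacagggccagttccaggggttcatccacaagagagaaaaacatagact
Ajuba, chr14:54577612-54577911, minus strand: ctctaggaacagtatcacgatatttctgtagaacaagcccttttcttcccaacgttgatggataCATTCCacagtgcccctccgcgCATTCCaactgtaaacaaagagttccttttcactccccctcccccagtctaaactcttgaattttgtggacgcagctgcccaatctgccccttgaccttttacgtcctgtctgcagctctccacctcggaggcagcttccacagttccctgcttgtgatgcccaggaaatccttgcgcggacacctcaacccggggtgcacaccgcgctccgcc
Wwtr1, chr3:57575861-57576160, minus strand: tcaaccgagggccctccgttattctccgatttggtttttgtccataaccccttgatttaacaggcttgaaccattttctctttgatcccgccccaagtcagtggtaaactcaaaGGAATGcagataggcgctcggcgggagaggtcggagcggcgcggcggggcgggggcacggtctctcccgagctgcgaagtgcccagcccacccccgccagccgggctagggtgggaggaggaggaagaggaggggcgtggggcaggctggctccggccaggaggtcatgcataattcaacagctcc
Tead2, chr7:45215542-45215841, plus strand: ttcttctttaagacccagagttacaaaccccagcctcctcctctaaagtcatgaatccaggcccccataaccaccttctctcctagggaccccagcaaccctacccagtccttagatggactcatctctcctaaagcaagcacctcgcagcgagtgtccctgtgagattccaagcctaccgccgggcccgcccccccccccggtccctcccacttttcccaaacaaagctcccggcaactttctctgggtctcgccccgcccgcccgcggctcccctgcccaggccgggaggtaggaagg
Both strands were searched for these 6 letters. The Ankrd1 window held the letters at 2 places, starting 210 and 123 bases before the start, and the Ajuba window at 2 places, 186 and 164 bases before it. Wwtr1 held 1 match, 136 bases before the start, and Tead2 none. Of the 7 members with a window, 6 held at least 1 match, among them Yap1, Amotl2 and Lats2, and Tead1 and Tead4 had no window. Of all genes with a window, 16.6% (4481 of 27025) held a match and 1.57% held 2 or more. Among the other YAP and TAZ targets listed below, 3 of 10 genes with a window held a match, and Ccn1 held 1, 103 bases before its start. A match of 6 letters describes the sequence and does not show binding.

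Array medians lay between 5.24 and 5.53, and arrays of a group correlated with r between 0.969 and 0.994 across genes. Precision is limited by how few arrays there are. The labels call arrays biological replicates without saying whether each came from its own mouse or culture, so p-values measure the spread between these arrays. As a guide to background, 1390 odorant and vomeronasal receptor genes had a 95th percentile of 5.31. The lines were told apart by Epcam, an epithelial adhesion molecule, which averaged 7.74 ± 0.42 in mixed tumours, 5.13 ± 0.45 in Py8119 tumours, 10.27 ± 0.28 in Py117 tumours, 5.07 ± 0.21 in Py8119 culture and 10.58 ± 0.19 in Py117 culture (SD, n = 5, 5, 5, 3 and 3). Py8119 samples, although labelled as mammary carcinoma, were thus at background for it. In bulk tumours fewer cells of a type and less RNA per cell cannot be told apart, and summed marker signals differed between groups. Fibroblast markers (8 genes) summed to 3405 to 6026 in mixed, 2843 to 5841 in Py8119 and 7178 to 15724 in Py117 tumours, against 854 to 988 in Py8119 culture and 433 to 504 in Py117 culture. Epithelial markers (10 genes) summed to 2074 to 2799, 1448 to 1727 and 6285 to 9485 in mixed, Py8119 and Py117 tumours, against 1706 to 1978 and 12574 to 13363 in Py8119 and Py117 culture. Py117 tumours thus had the highest fibroblast sum of the 5 groups and an epithelial sum between those of Py117 culture and the other groups. All 8 fibroblast markers averaged above background in each tumour group and 5 of 8 in each culture. Of the 10 epithelial markers, 7, 5 and 10 did so in mixed, Py8119 and Py117 tumours, and 5 and 9 in Py8119 and Py117 culture. The part of these sums in the results below was not tested.

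In culture, Ankrd1 was the member that differed most between the lines. Ankrd1 encodes an ankyrin repeat protein of the nucleus and the muscle sarcomere and is a widely used readout of YAP and TAZ. Its signals were 11.92, 11.77 and 11.84 in Py8119 culture and 9.74, 9.78 and 9.27 in Py117 culture. It was higher in Py8119 culture by 2.25 ± 0.15 on the log2 scale, a 4.75-fold difference (standard error, limma adjusted p = 6.17e-05, 95% interval 1.90 to 2.60). The arrays did not overlap, and the call held in every alternative run (adjusted p between 6.94e-09 and 0.000783).

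In tumours the Ankrd1 signals were 11.12, 11.36, 11.21, 11.20 and 11.29 in mixed tumours, 11.07, 11.12, 10.90, 11.27 and 11.20 in Py8119 tumours, and 5.30, 6.23, 6.45, 5.91 and 5.86 in Py117 tumours. The Py117 tumours were the low group by far, close to the background guide, and 1 of their 5 arrays was below it. Mixed and Py8119 tumours overlapped. The log2 differences, not tested because these arrays chose the gene, were 5.29 ± 0.16 for mixed minus Py117 tumours, 0.13 ± 0.16 for mixed minus Py8119 tumours and 5.16 ± 0.16 for Py8119 minus Py117 tumours (standard error). The last is a 35.8-fold difference, limited by the background in Py117 tumours. Set against its own culture, Ankrd1 differed by -0.73 ± 0.10 on the log2 scale in Py8119 tumours (1.66-fold lower) and by -3.65 ± 0.24 in Py117 tumours (12.5-fold lower), neither tested. Its level in Py8119 tumours was thus not above that of Py8119 culture, and its level in Py117 tumours was far below that of Py117 culture. In the order of group means, Py8119 culture stood above mixed tumours, Py8119 tumours, Py117 culture and Py117 tumours, and mixed and Py8119 tumours were the only neighbours whose arrays overlapped.

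Skeletal muscle, which also makes Ankrd1 and can lie beside a fat pad, gave summed signals of 10 marker genes of 508 to 579 in mixed, 522 to 578 in Py8119 and 524 to 624 in Py117 tumours, against 509 to 597 in Py8119 and 614 to 676 in Py117 culture. In each group 7 of the 10 markers averaged above background. These sums overlapped between tumours and cultures. Smooth muscle and pericyte markers (8 genes) summed to 992 to 1380 in mixed, 882 to 1416 in Py8119 and 1714 to 3204 in Py117 tumours, the highest of the 3 tumour groups. The part of either tissue in the Ankrd1 values was not tested.

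**Figure D1:**
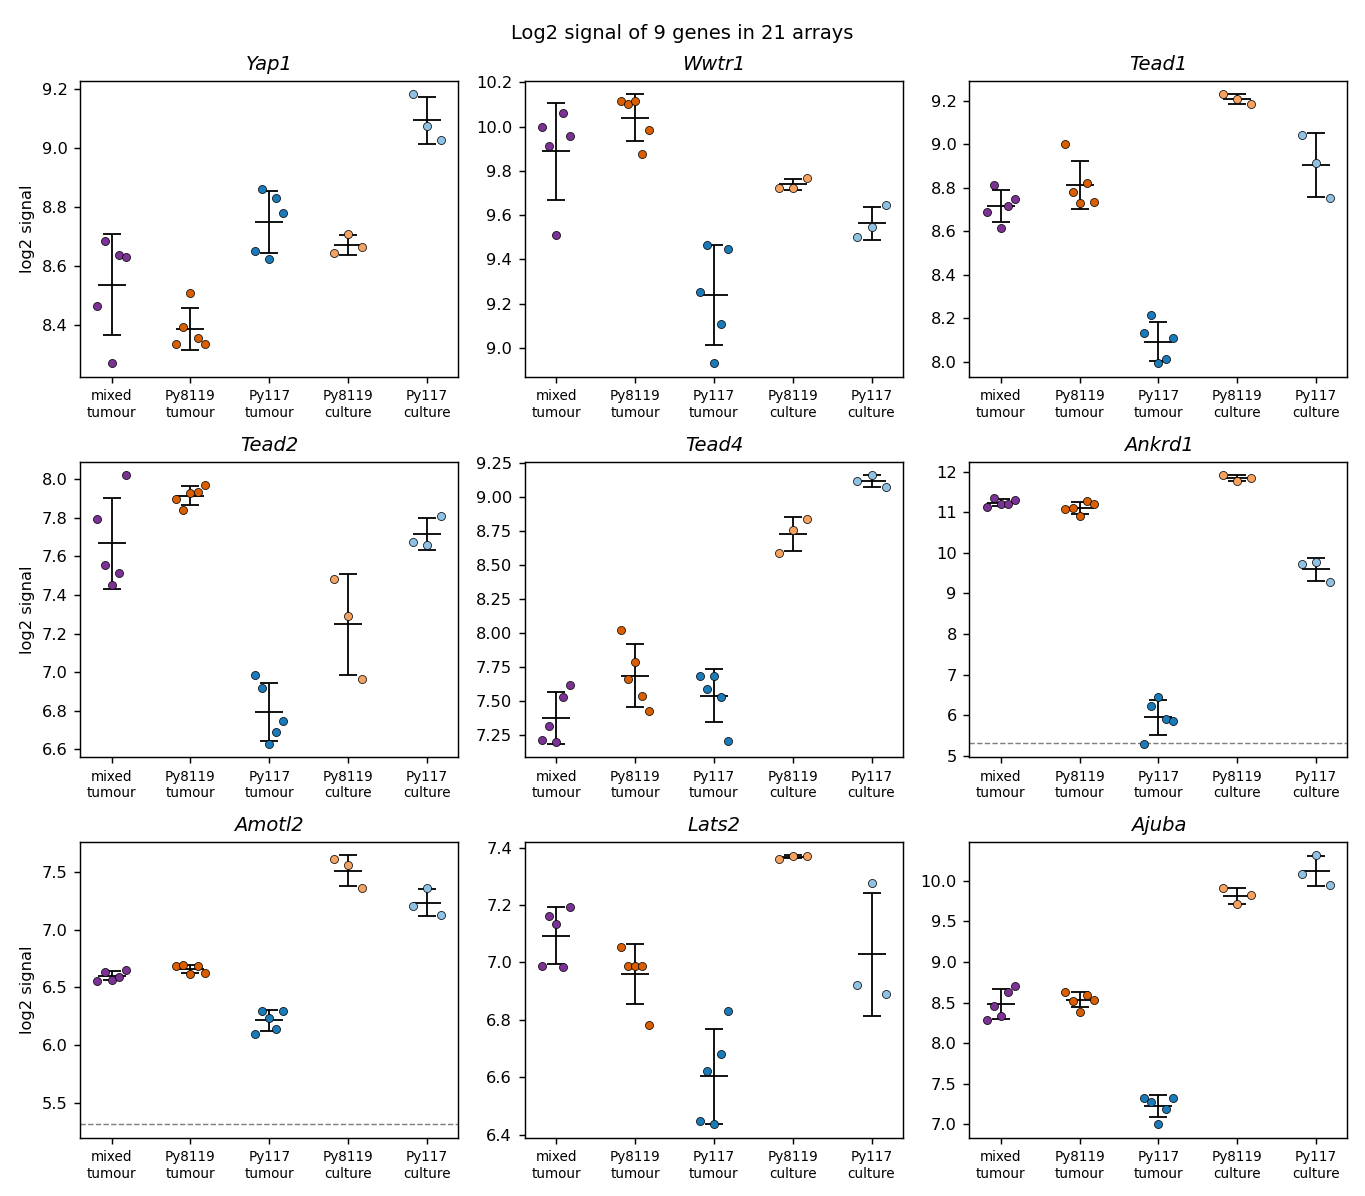
Log2 signal (y axis, own range in each panel) of the 9 genes in 21 arrays by group (x axis): points are arrays, and bars are the mean and SD of 5 tumour or 3 culture arrays. The dashed line in the panels it falls in is the background guide of 5.31, and Ankrd1 sits near it in Py117 tumours at a mean of 5.95, against 11.11 in Py8119 tumours.

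The coactivators Yap1 and Wwtr1 did not share the Ankrd1 pattern in the same way. Yap1 was lower in Py8119 culture than in Py117 culture (8.67 ± 0.03 and 9.09 ± 0.08, SD, n = 3 each), by a log2 difference of -0.42 ± 0.09 (limma adjusted p = 0.0122). That call was lost when arrays were centred on their median (adjusted p = 0.129), and when its second probe set, whose mean of 3.38 is under background, was averaged in (-0.09, adjusted p = 0.573). Yap1 averaged 8.54 ± 0.17 in mixed, 8.39 ± 0.07 in Py8119 and 8.75 ± 0.11 in Py117 tumours (SD, n = 5 each). Py8119 tumours were below Py117 tumours in every array, the reverse of Ankrd1. The mixed minus Py117 difference of -0.21 did not pass (limma adjusted p = 0.0757, 95% interval -0.40 to -0.02), and passed under quantile normalization (-0.26, adjusted p = 0.0172) and without Py117 tumour 3 (-0.24, adjusted p = 0.0492). It also passed with low-signal genes left out (adjusted p = 0.0429) and in 1 fit of all 21 arrays (adjusted p = 0.0475). Against its own culture Yap1 was 1.22-fold lower in Py8119 tumours (limma adjusted p = 0.0192) and fell by 0.34 on the log2 scale in Py117 tumours (adjusted p = 0.0306). Both calls were lost under quantile normalization (adjusted p = 0.0777 in Py8119 and 0.0665 in Py117). The call in Py8119 was also lost without culture 2 or 3 (adjusted p = 0.0583 and 0.0513), and that in Py117 without any 1 of culture 1, 2 or 3 or tumours 1 or 5 (adjusted p between 0.0509 and 0.130).

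Wwtr1, the gene of TAZ, had signals of 10.00, 9.91, 9.51, 10.06 and 9.96 in mixed tumours, 10.12, 10.10, 10.12, 9.88 and 9.98 in Py8119 tumours and 9.25, 9.46, 8.93, 9.11 and 9.45 in Py117 tumours. In culture it had 9.72, 9.72 and 9.77 in Py8119 cells and 9.50, 9.55 and 9.64 in Py117 cells. Py117 tumours were low, the mixed and Py8119 tumours high, and the cultures between them. Mixed tumours were above Py117 tumours by 0.65 ± 0.12 (limma adjusted p = 0.000286), and by 0.74 without mixed replicate 3, the array that stood apart at 9.51. In culture the difference of 0.18 did not pass (limma adjusted p = 0.202, 95% interval -0.03 to 0.38). Wwtr1 was higher in Py8119 tumours than in Py8119 culture by 0.30 (limma adjusted p = 0.0226), while in Py117 tumours the difference from culture of -0.32 did not pass (adjusted p = 0.107, 95% interval -0.63 to -0.02). The call in Py8119 was lost under centring (0.09, adjusted p = 0.441), in 1 fit of all 21 arrays (adjusted p = 0.0648) and without any 1 of Py8119 culture arrays 1 to 3 or Py8119 tumours 2 and 3 (adjusted p between 0.0501 and 0.0631). The fall in Py117 passed under centring (-0.48, adjusted p = 0.0168) and in 1 fit of all 21 arrays (-0.32, adjusted p = 0.0458). Which line changed against culture thus depended on the processing.

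The interaction asks whether the difference of Py8119 from Py117 is the same in tumours as in culture. It holds the tumour contrast that the list was drawn from, so its p-values for the members, here and below, are not independent of that choice. They are printed as a description, and nothing is concluded from them. For Wwtr1 it was 0.62 (limma adjusted p = 0.0161), the difference of group means being larger in tumours. Without Py117 culture 3 it was 0.58 (adjusted p = 0.0503). For Yap1 it was 0.06 (95% interval -0.20 to 0.32) and did not pass. Ankrd1 had 2.91 ± 0.27, given without a test.

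The TEAD factors differed from each other. Tead1 and Tead2 were lowest in Py117 tumours, and Tead4 was highest in the cultures of both lines. Tead2 had 7.79, 7.56, 7.45, 7.51 and 8.02 in mixed tumours, 7.90, 7.84, 7.93, 7.93 and 7.97 in Py8119 tumours and 6.98, 6.92, 6.63, 6.69 and 6.75 in Py117 tumours. Its culture signals were 7.48, 7.29 and 6.97 in Py8119 cells and 7.67, 7.66 and 7.81 in Py117 cells. The order of the lines was thus opposite in tumours and in culture, with no overlap of arrays in either. Tead2 rose by 0.67 ± 0.11 in Py8119 tumours over culture (limma adjusted p = 0.00112) and fell by 0.92 in Py117 tumours against culture (adjusted p = 0.000167). The interaction was 1.59 (limma adjusted p = 3.71e-06), and mixed tumours were above Py117 tumours by 0.88 (adjusted p = 4.17e-06). In culture the difference of -0.47 did not pass (limma adjusted p = 0.0512, 95% interval -0.81 to -0.13) and passed without Py8119 culture 1 (-0.59, adjusted p = 0.0264).

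Tead1 averaged 8.72 ± 0.07 in mixed, 8.81 ± 0.11 in Py8119 and 8.09 ± 0.09 in Py117 tumours (SD, n = 5 each), and 9.21 ± 0.02 in Py8119 and 8.90 ± 0.15 in Py117 culture (SD, n = 3 each). Mixed tumours were above Py117 tumours by 0.62 (limma adjusted p = 6.26e-06), with no overlap. Tead1 fell by 0.39 in Py8119 tumours (limma adjusted p = 0.00594) and by 0.81 in Py117 tumours (adjusted p = 0.000261), each against its culture. The interaction of 0.42 passed narrowly (limma adjusted p = 0.0484) and was lost without any 1 of 14 of the 16 arrays (adjusted p between 0.0528 and 0.148). It was also lost under centring (0.37, adjusted p = 0.101) and array weights (0.38, adjusted p = 0.0585).

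Tead4 averaged 7.38 ± 0.19 in mixed, 7.69 ± 0.23 in Py8119 and 7.54 ± 0.20 in Py117 tumours (SD, n = 5 each), groups that all overlapped, against 8.73 ± 0.13 in Py8119 and 9.12 ± 0.04 in Py117 culture (SD, n = 3 each). It fell in tumours of both lines against culture, by 1.04 in Py8119 (limma adjusted p = 0.000186) and by 1.58 in Py117 (adjusted p = 7.2e-06). The interaction of 0.54 did not pass (limma adjusted p = 0.073, 95% interval 0.14 to 0.93) and passed without Py8119 tumour 5 (0.60, adjusted p = 0.0436). It also passed with low-signal genes left out (adjusted p = 0.0384) and under array weights (adjusted p = 0.0331). In culture Tead4 was lower in Py8119 cells by 0.39 (difference -0.39 ± 0.10, limma adjusted p = 0.0264), a call lost under centring (-0.24, adjusted p = 0.216) and without Py117 culture 1, 2 or 3 or Py8119 culture 1 (adjusted p between 0.0663 and 0.0786).

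Ajuba, a LIM protein that restrains the LATS kinases at junctions, showed the widest tested changes of the members outside the comparison of cultures. It had 8.29, 8.46, 8.34, 8.63 and 8.71 in mixed tumours, 8.63, 8.52, 8.39, 8.60 and 8.53 in Py8119 tumours and 7.32, 7.28, 7.0, 7.19 and 7.32 in Py117 tumours. The cultures had 9.91, 9.71 and 9.82 in Py8119 cells and 10.09, 10.31 and 9.94 in Py117 cells. All tumours lay below all cultures, and Py117 tumours lay below the other tumours. In the order of group means, Py117 culture stood above Py8119 culture, Py8119 tumours, mixed tumours and Py117 tumours, and only Py8119 and mixed tumours overlapped as neighbours. Against culture, Ajuba fell by 1.28 in Py8119 tumours, 2.43-fold (limma adjusted p = 3.97e-06), and fell by 2.89 in Py117 tumours, 7.43-fold (adjusted p = 8.03e-08). The interaction was 1.61 (limma adjusted p = 1.61e-06), and mixed tumours were above Py117 tumours by 1.26 ± 0.10 (adjusted p = 1.78e-08). In culture the difference of -0.30 did not pass (limma adjusted p = 0.121, 95% interval -0.59 to -0.01). It passed with low-signal genes left out (adjusted p = 0.0464) and with an intensity trend and robust prior (adjusted p = 0.0223).

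Amotl2, an angiomotin that holds YAP at junctions and is itself a YAP target, averaged 6.60 ± 0.04 in mixed, 6.66 ± 0.04 in Py8119 and 6.21 ± 0.09 in Py117 tumours (SD, n = 5 each), against 7.51 ± 0.13 in Py8119 and 7.23 ± 0.12 in Py117 culture (SD, n = 3 each). It fell by 0.85 in Py8119 tumours (limma adjusted p = 3.96e-05) and by 1.02 in Py117 tumours (adjusted p = 4.58e-05) against culture, and mixed tumours were above Py117 tumours by 0.39 (adjusted p = 0.000265). Lats2, a kinase that phosphorylates YAP and TAZ and is also induced by them, averaged 7.09 ± 0.10 in mixed, 6.96 ± 0.10 in Py8119 and 6.60 ± 0.17 in Py117 tumours (SD, n = 5 each), and 7.37 ± 0.01 in Py8119 and 7.03 ± 0.21 in Py117 culture (SD, n = 3 each). Its deposited value was exactly equal in 4 tumours, mixed 1 and Py8119 2, 3 and 4, and 21.4% of all genes had a value shared by 2 or more arrays. Mixed tumours were above Py117 tumours in Lats2 by 0.49 (limma adjusted p = 0.000334). Lats2 was lower in tumours than in culture by 1.33-fold in Py8119 (limma adjusted p = 0.00429) and 1.34-fold in Py117 (adjusted p = 0.0362), the call in Py117 being lost without any 1 of Py117 culture 1, 2 or 3 or Py117 tumours 1 or 2 (adjusted p between 0.0513 and 0.168). The interaction was 0.17 for Amotl2 (95% interval -0.10 to 0.45) and 0.02 for Lats2 (-0.32 to 0.36), and neither passed. In culture neither Amotl2 (0.28, limma adjusted p = 0.122) nor Lats2 (0.34, adjusted p = 0.0888) passed, and Lats2 did without Py117 culture 2 (0.46, adjusted p = 0.0186). Lats2 also passed under centring, array weights and an intensity trend with robust prior, with low-signal genes left out, and in 1 fit of all 21 arrays (adjusted p between 0.0312 and 0.0491). Amotl2 passed under centring, with low-signal genes left out and in 1 fit of all 21 arrays (adjusted p between 0.0283 and 0.0453).

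**Figure D2:**
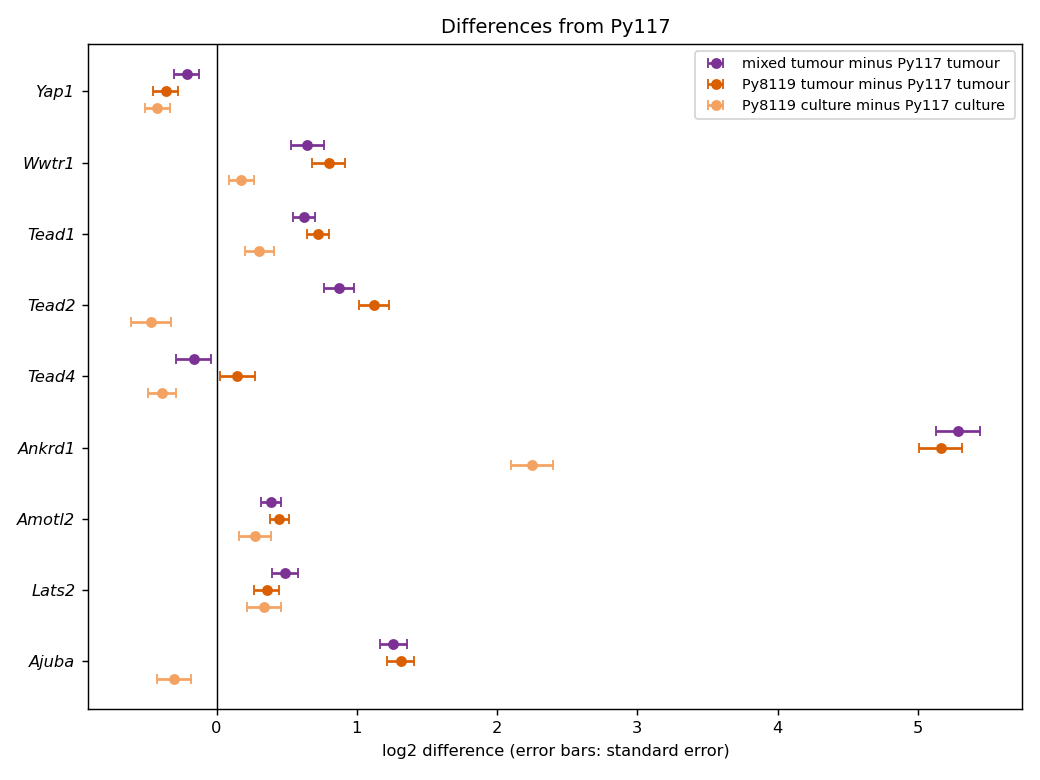
Log2 differences from Py117 (x axis; error bars, standard error from limma) for each gene (y axis) in mixed tumours, Py8119 tumours and Py8119 culture. Ankrd1 stands at 5.29, 5.16 and 2.25, while Ajuba and Tead2 are right of 0 in both tumour contrasts and left of 0 in culture.

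Counted over the members, 3 of 9 passed in culture (limma, adjusted p under 0.05), 1 higher and 2 lower in Py8119 cells, where 26.8% of all genes were called, 14.5% higher and 12.3% lower. The count was 8 with genes of low signal left out, 7 with an intensity trend and robust prior, and 6 with 1 fit of all 21 arrays. The 26.8% belongs to the main run. Shares of all genes under these 3 settings are not given, so nothing is read from the larger counts. The median difference of the members was 0.18, against -0.01 over all genes. Centring each array on its median moved the median of all genes by 0.15 here, and 4 members were then called higher and none lower. Mixed minus Py117 tumours, which share the Py117 arrays with the contrast that chose Ankrd1, had 6 of 8 tested members called, 6 higher and 0 lower, where 36.1% of genes were called, 19.2% higher and 16.9% lower. The members' median was 0.62 and that of all genes -0.03, and under quantile normalization the count was 6 higher and 1 lower, Yap1 being the lower one. Since the Py117 arrays also served to choose the list, nothing is read from these member counts. Mixed minus Py8119 tumours had 0 of 8 called and 2 at an unadjusted p under 0.05 (Tead4 at -0.31 and Tead2 at -0.25), where 1.78% of genes were called.

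Against culture, 6 of 8 tested members fell in Py8119 tumours and 2 rose, Wwtr1 and Tead2, where 37.1% of genes were called, 16.3% higher and 20.9% lower. The median was -0.41 for the members and -0.05 for all genes. In Py117 tumours 7 of 8 fell and 0 rose, where 30.7% of genes were called, 12.4% higher and 18.3% lower. The members' median was -0.92, against -0.09 over all genes. Both comparisons with culture use tumour arrays of the contrast that chose the list, so nothing is read from their member counts. Centring moved the median of all genes by -0.21 in Py8119 and by -0.16 in Py117, and the split in Py8119 was then 1 higher and 6 lower. In the interaction 4 of 8 were called and all 4 were higher (Wwtr1, Tead1, Tead2 and Ajuba), where 13.5% of genes were called, 7.5% higher and 5.99% lower, and since the interaction holds the contrast that chose the list, nothing is read from this count. In Py8119 minus Py117 tumours, the contrast that chose the list, 6 members were higher and 1 lower with no overlap of arrays, beside 27.6% of all genes without overlap (15.7% higher and 11.9% lower), and nothing is read from that count.

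**Figure D3:**
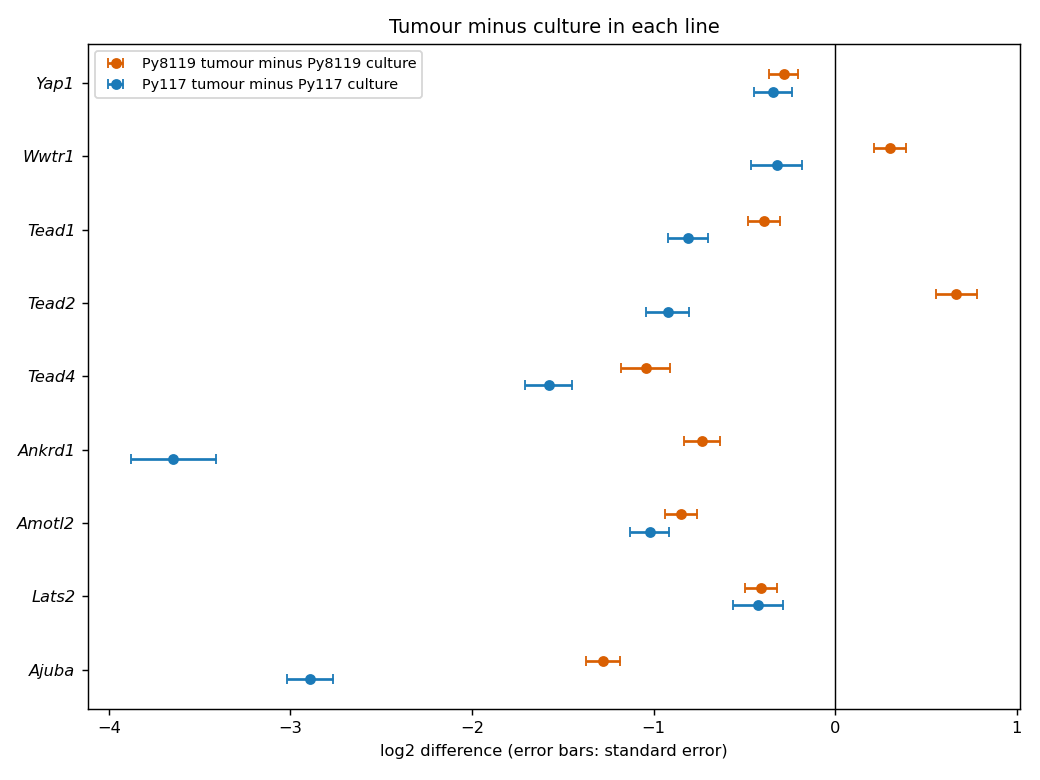
Log2 difference of tumour minus culture (x axis; error bars, standard error from limma) for each gene (y axis) in Py8119 and in Py117. Wwtr1 at 0.30 and Tead2 at 0.67 are the members right of 0 in Py8119, and every member is left of 0 in Py117, down to -3.65 for Ankrd1.

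Mixed tumours were placed between the parental tumours on the linear signal scale, with the Py117 mean at 0% and the Py8119 mean at 100%. A 1:1 implant says nothing of the shares at harvest, which the labels do not give. Ankrd1 stood at 109% ± 7.13 (SD, n = 5), between 100.2% and 118.8%, so every mixed tumour was at or above the Py8119 mean. Ajuba stood at 95% ± 20.5, Amotl2 at 84.2% ± 9.92, Tead1 at 83.1% ± 12, Wwtr1 at 77.9% ± 30.0 and Tead2 at 72.5% ± 27.2 (SD, n = 5 each). The line markers Epcam and Cdh1, epithelial cadherin, stood at 84.8% ± 5.70 and 85.7% ± 5.75 (SD, n = 5 each). The 5 mixed tumours spanned 75.4% to 90.6% for Epcam and 78.6% to 93.7% for Cdh1. The scale of each member is set by the parental tumours from which the list was drawn, so its position is a description and does not set a member apart from the markers. On the log2 scale Ankrd1 stood at 102%, Ajuba at 96.2%, Tead1 at 86.5%, Amotl2 at 86.2%, Wwtr1 at 81.2% and Tead2 at 78.0%, while Epcam stood at 49.3% and Cdh1 at 62.2%, so the order of members and markers depended on the scale. For Yap1, Tead4 and Lats2 the parental tumours lay 0.36 or less apart on the log2 scale, against 0.45 for Amotl2, so their positions are loosely fixed. On the linear scale these were 60.0% ± 43.9 for Yap1, -96.8% ± 108 for Tead4 and 145% ± 34.6 for Lats2 (SD, n = 5 each).

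**Figure D4:**
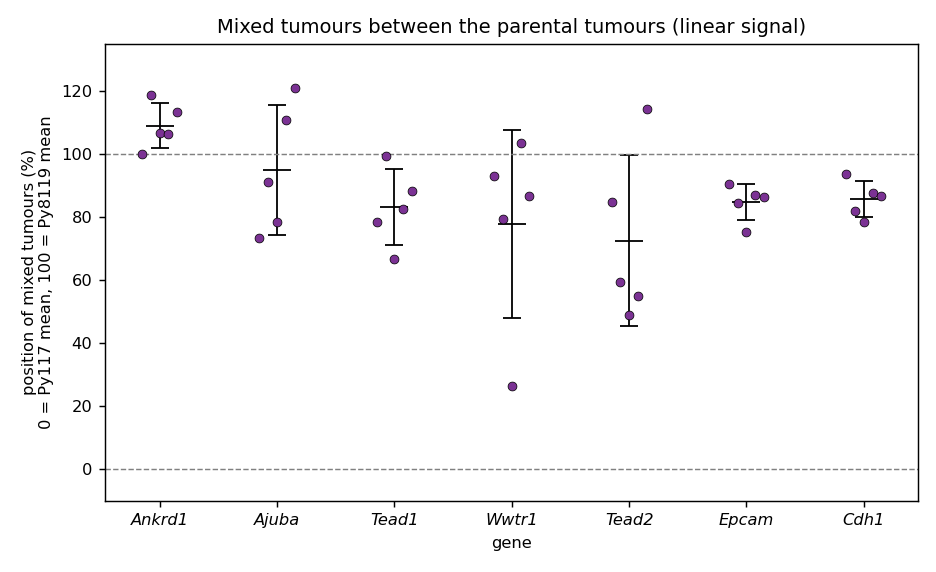
Position of the 5 mixed tumours (y axis, percent; 0 is the Py117 and 100 the Py8119 tumour mean on the linear scale) for 5 members and 2 line markers (x axis), with mean and SD. Ankrd1 points lie between 100.2% and 118.8%, and Epcam points between 75.4% and 90.6%.

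Other genes of the pathway came from a list of 50, of which 45 were measured. Among 18 other YAP and TAZ targets, 4 were higher and 8 lower in Py8119 than in Py117 culture (limma, adjusted p under 0.05), where 26.8% of all genes were called, 14.5% higher and 12.3% lower. In mixed against Py117 tumours 5 were higher and 9 lower, where 36.1% of all genes were called, 19.2% higher and 16.9% lower. The list's median differences were -0.35 in culture and -0.36 in tumours, against -0.01 and -0.03 over all genes. Of the targets called, 8 of 12 in culture and 9 of 14 in tumours thus lay on the other side from Ankrd1. Fibroblast and smooth muscle marker sums, given above, were highest in Py117 tumours among the tumour groups. The part of host cells in the tumour count was not tested. The receptor kinase Axl went with Ankrd1, being higher in Py8119 culture by 1.34 (limma adjusted p = 0.000132) and in mixed over Py117 tumours by 1.54 (adjusted p = 2.98e-08). F3, tissue factor, was lower in Py8119 culture (-1.93 ± 0.12, limma adjusted p = 4.61e-05) and in mixed than in Py117 tumours (-2.51, adjusted p = 1.89e-07). Fjx1, a secreted regulator of Fat signalling, was lower in Py8119 culture as well (-1.52, limma adjusted p = 9.52e-05), where its mean of 5.31 was at background. Thbs1, thrombospondin, was at -1.71 in culture (limma adjusted p = 8.49e-05), and Nt5e, the ecto-enzyme CD73, at -1.29 (adjusted p = 0.000793). Thbs1 was lower in mixed than in Py117 tumours too (-0.59, limma adjusted p = 0.0327), but Nt5e was higher there (0.72, adjusted p = 0.0274). The Thbs1 call was lost under centring (-0.53, adjusted p = 0.052) and without mixed tumour 1, 4 or 5 (adjusted p between 0.0504 and 0.0734), and the Nt5e call without mixed tumour 2 or 5 or Py117 tumour 1, 4 or 5 (adjusted p between 0.0502 and 0.0766). The adhesion protein Ccdc80 was lower in mixed than in Py117 tumours (-2.08, limma adjusted p = 3.86e-06).

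Ccn1 and Ccn2, matricellular proteins read most often beside Ankrd1, did not follow it. Ccn1 had 9.88, 10.67, 10.29, 10.45 and 9.92 in mixed tumours, 10.11, 10.00, 9.97, 10.35 and 10.21 in Py8119 tumours and 9.75, 10.25, 10.27, 10.38 and 10.00 in Py117 tumours. All 3 tumour groups overlapped, and the cultures were higher, at 11.96, 12.04 and 12.08 in Py8119 and 11.70, 12.31 and 11.66 in Py117 cells. Ccn1 fell by 1.90 in Py8119 tumours (limma adjusted p = 6.48e-07) and by 1.76 in Py117 tumours (adjusted p = 4.93e-05), with an interaction of -0.14 that did not pass (adjusted p = 0.759). Its differences in culture (0.14, limma adjusted p = 0.629) and between mixed and Py117 tumours (0.11, adjusted p = 0.619) did not pass. Ccn2 averaged 7.48 ± 0.43 in mixed, 7.53 ± 0.34 in Py8119 and 9.15 ± 0.49 in Py117 tumours (SD, n = 5 each), the reverse of Ankrd1. It was lower in mixed than in Py117 tumours (-1.67 ± 0.23, limma adjusted p = 1.72e-05), and its interaction was -1.19 (adjusted p = 0.0217). That interaction was not called without Py117 culture 1 (adjusted p = 0.0672) or Py8119 culture 2 (adjusted p = 0.0503), or with all its probe sets averaged (-0.75, adjusted p = 0.0585). Ccn2 averaged 8.07 ± 0.10 in Py8119 and 8.51 ± 0.23 in Py117 culture (SD, n = 3 each), a difference that did not pass (-0.44, limma adjusted p = 0.0531). It passed under quantile normalization (-0.46, adjusted p = 0.0409), and its adjusted p lay between 0.00766 and 0.297 over the alternative runs. Fibroblasts are rich in Ccn2, and the fibroblast marker sums given above were highest in Py117 tumours as well. Endothelial marker sums (10 genes) were also highest in Py117 tumours, at 2686 to 4739. They were 1517 to 1779 in mixed and 1032 to 1433 in Py8119 tumours. The part of either cell type in the Ccn2 values was not tested.

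**Figure D5:**
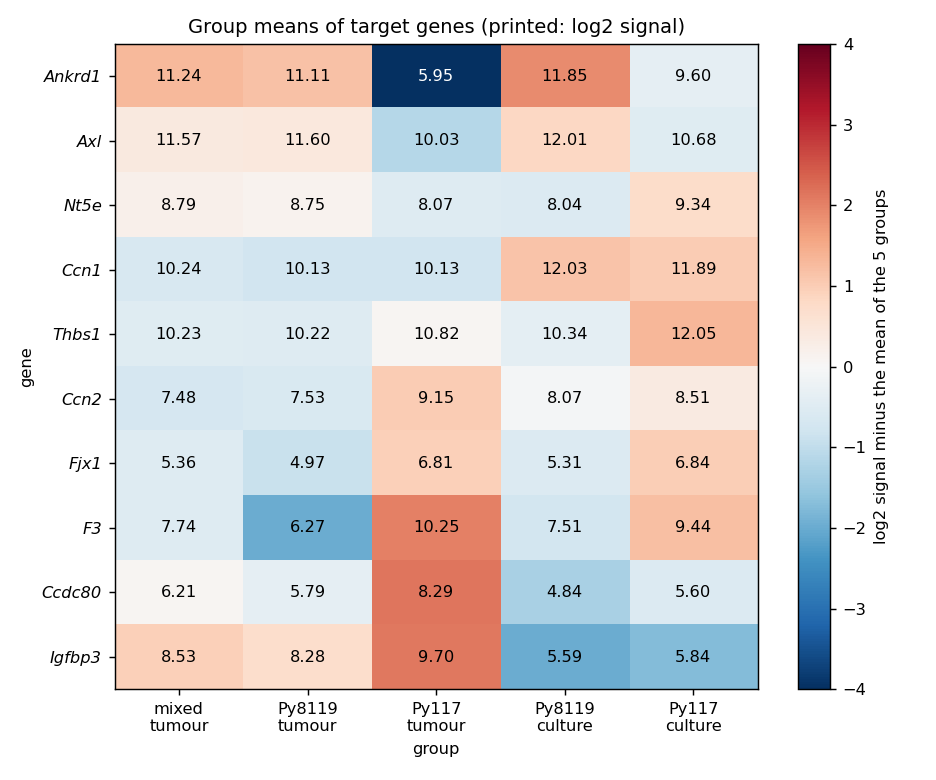
Group means (printed, log2 signal) of Ankrd1 and 9 other target genes (y axis) in 5 groups (x axis), coloured by their distance from the mean of the 5 groups. Ankrd1 and Axl are lowest in Py117 tumours (5.95 and 10.03), where Ccn2 and F3 are highest (9.15 and 10.25).

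Against culture, 6 of the 18 targets rose and 9 fell in Py8119 tumours (limma, adjusted p under 0.05), where 37.1% of all genes were called. In Py117 tumours 5 rose and 7 fell, where 30.7% of all genes were called. The list medians were -0.32 in Py8119 and -0.26 in Py117, against -0.05 and -0.09 over all genes. Centring turned the split in Py117 to 3 higher and 9 lower, while 22.6% of the calls over all genes were then higher. The widest rise was that of Igfbp3, an IGF-binding protein that stromal cells also make, by 2.69 in Py8119 (limma adjusted p = 1.68e-06) and by 3.86 in Py117 (adjusted p = 4.25e-05). Its culture means of 5.59 in Py8119 and 5.84 in Py117 were close to background. In the interaction 8 of the 18 were called, where 13.5% of all genes were. Of these, 4 were higher (Nt5e, Thbs1, Myof and Asap1) and 4 lower (Ccn2, Crim1, F3 and Ccdc80). The widest were F3 (-2.05, limma adjusted p = 0.00031) and Nt5e (1.97, adjusted p = 0.00287). The interaction of Thbs1 (1.10) was lost without any 1 of 14 of the 16 arrays (adjusted p between 0.0533 and 0.106).

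Upstream, 2 of 11 measured Hippo kinases and scaffolds were called in culture, where 26.8% of all genes were called. Wwc2 was higher (0.69, limma adjusted p = 0.00211) and Wwc1 lower (-0.58, adjusted p = 0.0121) in Py8119 cells. Wwc1, also called KIBRA, and its paralogue Wwc2 are scaffolds that promote LATS activity. In mixed against Py117 tumours 2 of the 11 were higher and 3 lower, beside 36.1% of all genes called, the widest being Wwc1 (-1.44, limma adjusted p = 2.07e-07). Wwc1 fell by 1.53 in Py8119 tumours against culture (limma adjusted p = 4.15e-05). Of 11 junction regulators, 1 was higher and 4 were lower in Py8119 culture, among them Ptpn14, a phosphatase that binds YAP (-1.06, limma adjusted p = 0.000164), Amotl1, the paralogue of Amotl2 (-0.72, adjusted p = 0.00351), and Crb3, of the apical Crumbs complex (-0.66, adjusted p = 0.0432). The Crb3 call was lost under quantile normalization (-0.54, adjusted p = 0.072) and without any 1 of Py117 culture 1, 2 or 3 or Py8119 culture 3 (adjusted p between 0.0632 and 0.127). That of Wwc1 in culture was lost without Py117 culture 1 (adjusted p = 0.0504). Under centring the calls in culture were 2 higher and 1 lower for the kinases and 2 and 3 for the junction regulators, and under quantile normalization 1 and 3 and 2 and 3. Wtip, a LIM protein of the Ajuba family, was the 1 higher there (1.01, limma adjusted p = 0.00167), and it was higher in mixed than in Py117 tumours as well (0.96, adjusted p = 1.55e-07). In mixed against Py117 tumours 4 regulators were higher and 6 lower, led by Frmd6, a FERM protein of the pathway's upstream arm (1.5 ± 0.09, limma adjusted p = 5.3e-10), and the protocadherin Fat1 (-1.13, adjusted p = 1.43e-06). Frmd6 fell by 1.20 in Py117 tumours against culture (limma adjusted p = 2.7e-05), while the 0.14 in culture between the lines did not pass (adjusted p = 0.32). Tead3, the TEAD that is not a member, ran against Tead1 and Tead2 in tumours, being lower in mixed than in Py117 tumours (-0.73, limma adjusted p = 6.04e-05) and in Py8119 than in Py117 culture (-0.97, adjusted p = 0.00162). The cofactor Vgll3, which binds TEADs in place of YAP, was higher in Py8119 culture (0.72, limma adjusted p = 0.016) and in mixed tumours (0.64 over Py117, adjusted p = 0.00278), the call in culture being lost without Py117 culture 1 (adjusted p = 0.0563) or Py8119 culture 3 (adjusted p = 0.0509).

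Over all 45, 7 were higher and 14 lower in culture, 13 and 20 in mixed against Py117 tumours, 10 and 20 in Py8119 tumours against culture, 10 and 14 in Py117 tumours against culture, and 5 and 7 in the interaction. The shares of all genes called in these 5 comparisons were 26.8%, 36.1%, 37.1%, 30.7% and 13.5% in the same order. Under centring the splits against culture were 7 and 27 in Py8119 and 8 and 23 in Py117, that between the cultures was 10 and 12 and that in the interaction 5 and 11, or 5 and 12 under quantile normalization. Between mixed and Py8119 tumours 2 of 45 were called, where 1.78% of all genes were, both higher in mixed tumours, F3 (1.47, limma adjusted p = 0.00143) and Fat1 (0.55, adjusted p = 0.0266). The Fat1 call was lost without mixed tumour 2 or 3 or Py8119 tumour 2, 3 or 5 (adjusted p between 0.0616 and 0.0936). Both were lower in Py8119 than in Py117 tumours, at -3.98 and -1.68, differences not tested here.

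The genes whose pattern over the 21 arrays was most like that of Ankrd1, by Pearson correlation among 1464 genes with group means at least 2 apart, were Cdh2 (r = 0.990), Msln (0.984), Chrnb1 (0.982), Slc7a6 (0.981) and Efnb2 (0.976). Cdh2, the mesenchymal N-cadherin, averaged 10.59 in mixed, 10.65 in Py8119 and 7.0 in Py117 tumours, against 11.17 in Py8119 and 9.78 in Py117 culture. Msln, the cell-surface protein mesothelin, averaged 9.18, 9.17 and 5.14 in mixed, Py8119 and Py117 tumours, so its mean in Py117 tumours was under the background guide, and 9.31 and 8.25 in Py8119 and Py117 culture. The closest to Wwtr1 were Ankrd29 (0.909), Mtmr11 (0.898) and Stard6 (0.892). Among members the pair most alike was Amotl2 and Ajuba (r = 0.95) and the least alike was Yap1 and Wwtr1 (-0.46), while Ankrd1 and Tead1 had 0.88. These correlations are descriptions, since the 21 arrays form 5 groups and share the step between tumour and culture.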

How the data were processed

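RNA of 21 samples was measured on whole-transcript arrays (WT PLUS assay, biotin label, per the labels' protocols). The deposited values are log2 signals, which the authors made by RMA, and limma is also named, per the submitters' processing notes. Versions, background settings and array batches are not given in the sources used here. Of 41345 probe sets, 23521 with a single gene symbol were kept, 1814 with several and 16010 with none were left out. For 1082 genes with several probe sets, the one with the highest mean over all arrays was used, giving 22180 genes.

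Tests used lmFit and eBayes of limma (version 3.58.1, R version 4.3.3), and p-values were adjusted by Benjamini-Hochberg over all 22180 genes with a threshold of 0.05. The fits used the 6 culture arrays, the 15 tumour arrays, the 8 arrays of a line, or 16 arrays for the interaction. The procedure was tested on simulated data. The members and lists were chosen with earlier results of these data known. Genes were named by rule: the members, up to 4 called genes of each list with the widest difference in culture and up to 4 in any other comparison, Ccn1, Ccn2, the 5 genes most like Ankrd1 and 3 most like Wwtr1, and Epcam and Cdh1. Further genes called in the interaction (Myof, Asap1 and Crim1) were named after their values were seen. Of the pathway list, 5 genes were not analysed here. Promoters came from RefSeq (GRCm38.p6). Plots were made in Python 3.11.15 with matplotlib 3.10.9.

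Alternatives changed the scaling (quantile normalization or centring of each array), the genes (those of low mean signal left out, or all probe sets of a gene averaged) or the fit. In the fit, a robust prior with an intensity trend, weights per array, a joint fit of the 21 arrays, the replicate number as a block, and omission of single arrays were tried. Mixed positions were also computed on the log2 scale.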

Additional observations from a re-analysis of the deposited data

Results flagged for a closer look

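In 7 of 99 groups of 5 tumour arrays examined for the named genes, 1 array stood far from the others (its gap to the nearest array divided by the range of the group exceeded 0.71). Chance gives about 5% of groups. Among the members these were Wwtr1 in mixed tumour 3 (ratio 0.727, signal 9.51 against 9.91 to 10.06 in the others) and Lats2 in Py8119 tumour 5 (ratio 0.753, signal 6.78 against 6.99 to 7.06, 3 of the others being exactly equal). Among the other pathway genes they were Nf2 in Py117 tumour 3 (0.711), Crb3 in Py8119 tumour 2 (0.732), Fat4 in Py8119 tumour 1 (0.870), Thbs1 in Py117 tumour 5 (0.810) and Ccdc80 in Py8119 tumour 4 (0.717).

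Limma's interaction test of the difference of Py8119 from Py117 in tumours against culture called 4 of 8 tested members. It called 12 of the 45 other pathway genes, where 13.5% of all genes were called (7.5% higher and 5.99% lower). The test holds the tumour contrast that the list was drawn from, so nothing is read from the member count. The calls of Wwtr1, Tead1, Thbs1 and Ccn2 were lost in runs given above. Among the members the interaction was 0.62 for Wwtr1, 0.42 for Tead1, 1.59 for Tead2 and 1.61 for Ajuba on the log2 scale. It was -0.69 for Wwc2, -1.21 for Wwc1, -1.55 for Fat1, 1.35 for Frmd6, -2.05 for F3, 1.10 for Thbs1, -1.73 for Ccdc80, 1.97 for Nt5e and -1.19 for Ccn2. It was 0.57 for Myof, 0.90 for Asap1 and -1.12 for Crim1. Tead2 and Nt5e had opposite directions in their lines, rising in Py8119 tumours over culture (0.67 and 0.70) and falling in Py117 tumours (-0.92 and -1.27). F3 and Fat1 went the other way, falling in Py8119 tumours (-1.24 and -0.82) and rising in Py117 tumours (0.81 and 0.73). In Py117 tumours the call of Nt5e was lost without Py117 culture 2 or 3 (adjusted p = 0.0668 and 0.0751), and that of F3 under centring (0.65, adjusted p = 0.0564) and without any 1 of Py117 culture 1, 2 or 3 or Py117 tumour 1 (adjusted p between 0.0533 and 0.101).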

How the results depend on the processing

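Of 862 values of the members under the alternatives, 775 kept their direction and their side of the threshold, 51 lost a call or moved, 29 gained a call and 7 reversed. Of 1468 values of other named pathway genes the counts were 1358, 94, 11 and 5. Members called in culture numbered 8 with genes of low signal left out, 7 with an intensity trend and robust prior and 6 with 1 fit of all 21 arrays, against 3 (the adjusted p of the 6 members not called lay between 0.0512 and 0.202). The shares of all genes called in these runs are not given, so nothing is read from the larger counts. Pathway genes called between mixed and Py8119 tumours numbered 1 under a replicate block, against 2.

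Without single arrays the members called numbered 2 to 3 in culture, 6 to 7 in mixed against Py117 tumours, 0 in mixed against Py8119 tumours, 6 to 8 in Py8119 and 5 to 7 in Py117 tumours against culture, and 3 to 4 in the interaction. The pathway genes called numbered 16 to 23, 30 to 33, 1 to 2, 23 to 28, 17 to 27 and 10 to 15 in the same order. Members without overlap between Py8119 and Py117 tumours numbered 7 to 8.

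The values that reversed were all small. Ccn2 in mixed minus Py8119 tumours was 0.044 under array weights and -0.17 to 0.084 without single arrays, against -0.044. The interaction of Lats2 was -0.027 under centring, -0.056 under array weights and -0.11 to 0.088 without single arrays, against 0.018, and that of Yap1 was -0.11 with the mean of its probe sets, against 0.06. The cause was not tested.

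Pairing of same-numbered arrays of different groups was not settled. Of 36 pairs, 6 had a correlation of their deviations over 0.1 (range -0.23 to 0.26), and 12 correlated best with their own number. Among the latter were replicates 1 to 4 of Py117 and mixed tumours (r = 0.16, 0.09, 0.26 and 0.18), but not replicate 5 (-0.05). The main fits did not use the replicate number. The replicate block ended the calls of Tead4 in culture (adjusted p = 0.0575), Yap1 in Py8119 (0.123) and Py117 (0.0895) and Tead1 in Py8119 tumours against culture (0.0566), and added that of Tead4 in the interaction (0.0309). Signal over background limits, among others, Ankrd1 in Py117 tumours, Fjx1, Vgll1 and Ankrd2, and Fat4, Igfbp3 and Ccdc80 in culture. Ccdc80 averaged 4.84 in Py8119 culture, under the background guide, which limits its interaction.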

Other observations

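The muscle ankyrin repeat genes Ankrd2 and Ankrd23, paralogues of Ankrd1, were not called between the lines. Ankrd2 averaged 5.46 in mixed, 5.61 in Py8119 and 5.44 in Py117 tumours, and its difference of 0.03 between mixed and Py117 tumours did not pass (limma adjusted p = 0.900). Ankrd23 averaged 6.48 in mixed, 6.60 in Py8119 and 6.79 in Py117 tumours, and its difference of -0.30 did not pass (limma adjusted p = 0.125). In culture the differences of Py8119 from Py117 were -0.03 for Ankrd2 (limma adjusted p = 0.920) and 0.05 for Ankrd23 (adjusted p = 0.844).

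The protocadherin Fat4, a receptor of the Fat and Dachsous arm, rose in tumours of both lines over culture, by 1.13 in Py8119 (limma adjusted p = 6.81e-05) and by 1.43 in Py117 (adjusted p = 3.6e-05). The kinase Taok3 rose likewise, by 0.86 in Py8119 (limma adjusted p = 6.01e-05) and by 1.41 in Py117 (adjusted p = 7.79e-05). Nf2, the merlin scaffold, fell in both, by 0.52 in Py8119 (limma adjusted p = 0.000977) and by 0.55 in Py117 (adjusted p = 0.0291), where the call was lost without any 1 of Py117 culture 1, 2 or 3 or Py117 tumour 2 (adjusted p between 0.051 and 0.124). Fat4 averaged 5.37 in Py8119 and 4.96 in Py117 culture, at background, and fibroblast and immune marker sums were higher in the same tumours than in culture. Their part in the Fat4 values was not tested.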
